A study of Mus musculus with 7 samples.

Results

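The collagen genes described here are the 44 protein-coding genes of the deposited count table whose GRCm38 symbol is Col, a type number, the letter a and a chain number, among 48820 identifiers in all. They were picked by a rule on the symbol that uses no values, although earlier results of these data were known. By the structure their proteins form, they were grouped into 11 fibrillar, 6 basement membrane, 6 beaded filament and 21 other genes. RNA was sequenced from whole tibialis anterior (TA) muscle, a muscle of the shin, of male mice aged 7 weeks, taken on day 3 after an injection of barium chloride (BaCl2), a salt that kills muscle fibres. The 4 Sirt7 scKO libraries came from Sirt7fl/fl; Pax7-CreERT2 mice and the 3 control libraries from WT; Pax7-CreERT2 mice, so every mouse carried the recombinase and every muscle was injured. Pax7-CreERT2 is a drug-inducible recombinase driven by Pax7, a gene of muscle stem cells. The deletion is thus aimed at stem cells and what they give rise to, whereas the RNA is that of the entire tissue. The sources used here do not state the inducing drug or its schedule. The labels name the libraries as separate biological replicates.

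Collagens are helical trimers of alpha chains in which glycine recurs at a regular spacing, and they are the main proteins of the extracellular matrix. Fibrillar collagens assemble into the fibres that bear tension, type IV collagen forms the sheet-like network of basement membranes around muscle fibres and vessels, and type VI collagen forms beaded filaments next to that membrane. In regenerating muscle, collagens are made above all by fibroblast-like cells, the fibro-adipogenic progenitors, and the matrix they lay down holds the place of the dead fibres while new ones form.

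Libraries held 5425095 to 7553137 counts in Sirt7 scKO muscle and 5601699 to 5777563 in control muscle. Sirt7, the gene named as deleted, stood at 43.7 ± 8.39 CPM in Sirt7 scKO and 58.0 ± 12.2 CPM in control (SD, n = 4 and 3), which did not pass (edgeR adjusted p = 0.288). An exact permutation test, two-sided, gave p = 0.143 where the smallest possible is 0.0286. CPM are counts relative to library size, scaled by TMM. Markers of muscle were present: those of mature fibres summed to 429 to 2902 CPM in Sirt7 scKO and 1578 to 4121 CPM in control, with all 5 log2 fold changes negative and none past the test, and those of macrophages to 2040 to 2380 CPM in Sirt7 scKO and 2234 to 2285 CPM in control. Sirt7 scKO replicate 4 stood apart from the other 6 libraries on the second principal component of all tested genes (score -35.2, against -0.684 to 16.8, 18.8% of the variance), and calls of collagen and pathway genes that it decides are given with and without it. On the first component (31.7% of the variance) the scores were -2.87, -26.6, -22.3 and -7.06 in Sirt7 scKO replicates 1 to 4. They were 29.9, 24.5 and 4.44 in control replicates 1 to 3.

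The share of the RNA taken by collagen genes differed between the groups by less than the spread between libraries. Their counts made up 1.38%, 1.57%, 1.43% and 1.27% of all counts in Sirt7 scKO replicates 1 to 4 and 1.45%, 1.32% and 1.45% in control replicates 1 to 3. The means were 1.41 ± 0.124% in Sirt7 scKO and 1.41 ± 0.0719% in control (SD, n = 4 and 3), and the range of the Sirt7 scKO libraries enclosed that of the control libraries. Fibrillar genes held 72.4 ± 1.38% of the collagen counts in Sirt7 scKO and 73.0 ± 0.670% in control. Beaded filament genes held 17.0 ± 1.27% in Sirt7 scKO and 16.9 ± 0.919% in control. Basement membrane genes held 5.42 ± 0.526% in Sirt7 scKO and 5.10 ± 0.134% in control, and the other genes 5.17 ± 0.322% in Sirt7 scKO and 4.99 ± 0.172% in control. The make-up of the collagen transcripts therefore differed between the groups by less than the spread within Sirt7 scKO for each of these 4 structural groups. Against the smaller control SD, the differences for basement membrane genes (0.323 percentage points) and the other genes (0.181 percentage points) were larger. In both, the range of the Sirt7 scKO libraries enclosed that of the control libraries.

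Levels ran over several orders of magnitude. Per kilobase of exon, the mean over the 7 libraries was highest for Col1a1 (490 CPM per kb), Col3a1 (319 CPM per kb) and Col1a2 (224 CPM per kb), the chains of types I and III that form most fibres of soft tissue. Col6a1 (173 CPM per kb), Col6a2 (84.0 CPM per kb) and Col6a3 (78.2 CPM per kb) of the beaded filaments followed. Next came Col5a1 (61.8 CPM per kb), Col4a1 (57.0 CPM per kb), Col4a2 (47.0 CPM per kb) and Col5a2 (43.98 CPM per kb). The order depended on the length used: with the longest transcript in place of the union of exons, Col3a1 (562 CPM per kb) came before Col1a1 (542 CPM per kb) and Col1a2 (522 CPM per kb). The median exon of the longest transcript was 54 bases in all 11 fibrillar genes, against a median of 162 bases over 21760 protein-coding genes. The aligner named by the submitters, Bowtie2, cannot place a read over an intron, and no source used here states whether its target was the genome. Whether this lowers the levels of genes with such short exons was not tested.

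**Figure D1:**
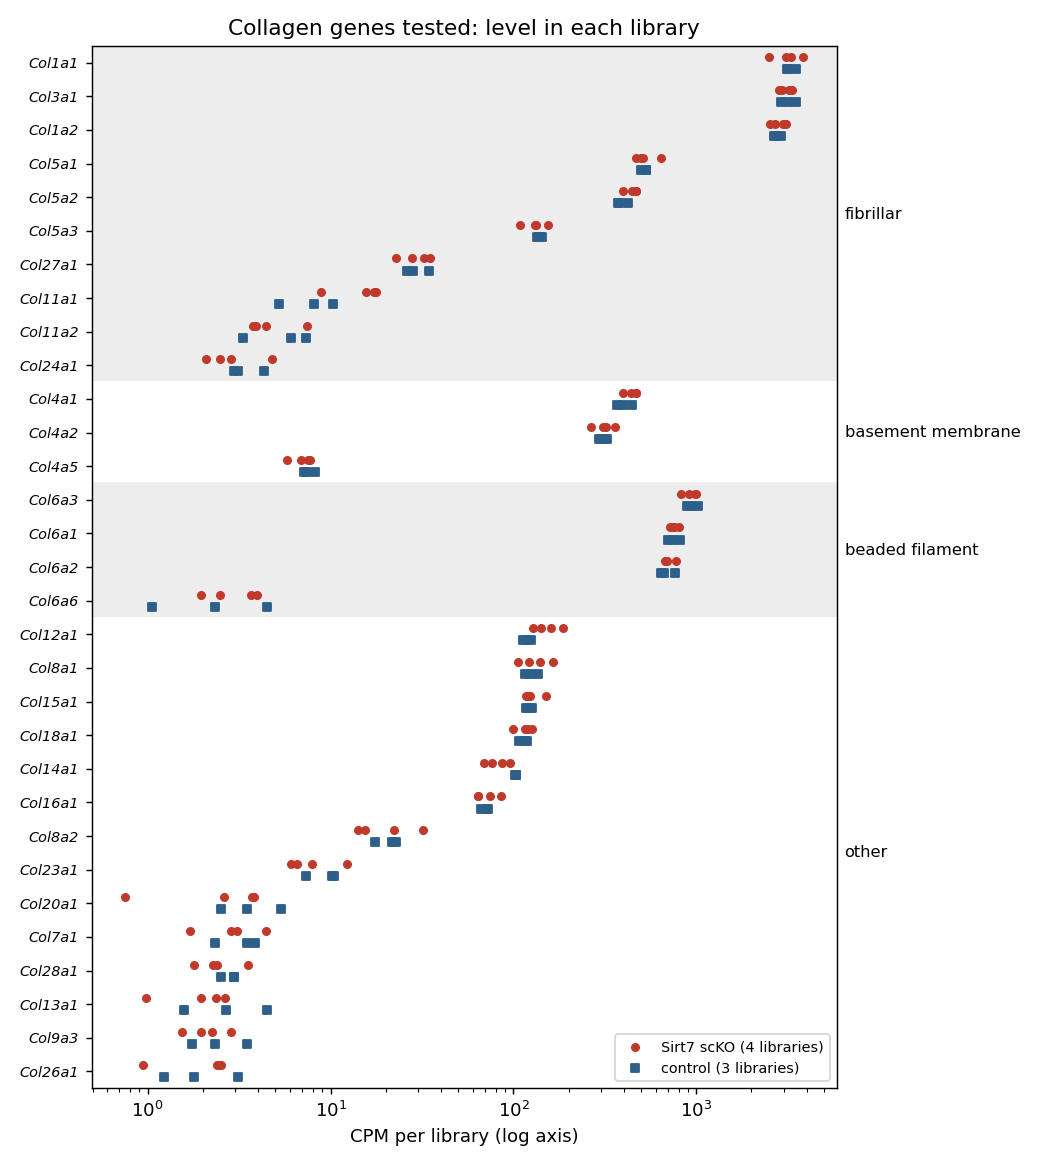
Level of the 31 tested collagen genes in each library, in CPM on a log axis, with one row per gene ordered by structural group and then by mean level. Red circles are the 4 Sirt7 scKO libraries and blue squares, drawn just under them, the 3 control libraries. Col1a1, Col3a1 and Col1a2 lie together near the top of the scale, and the points of the groups overlap in all rows but those of Col12a1 and Col14a1.

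No collagen gene passed the test between Sirt7 scKO and control. The 31 members with enough counts were tested with edgeR's quasi-likelihood test among 16764 genes, of which 0.131% had an adjusted p under 0.05 (0.101% with positive and 0.0298% with negative fold changes on the log2 scale), and the smallest adjusted p of a member was 0.165. DESeq2 passed 1 member, Col11a1, and 0.919% of all genes (0.471% higher and 0.447% lower). At an unadjusted p under 0.05 there were 3 members of 31 (9.68%), Col11a1 and Col12a1 with positive and Col14a1 with negative log2 fold changes, against 13.6% of all genes tested (6.69% higher and 6.94% lower). The groups did not overlap in 2 of the 31 members (6.45%), Col12a1 and Col14a1, against 12.2% of all genes tested (6.51% higher and 5.71% lower). Both shares were under the background, but they rest on 3 and 2 genes and the gap was not tested. Log2 fold changes, always Sirt7 scKO over control, were positive for 17 members and negative for 14, with a median of 0.01, against 0.01 over all genes tested, both rounded to 2 decimals. They were smaller than 0.2 in either direction for 25 of the 31 members (80.6%), against 64.4% of all genes.

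The precision differed with depth. For the 15 members with a mean of at least 100 CPM, the 95% intervals of the fold change lay between 0.808 and 1.56, and 14 of these 15 had a log2 fold change smaller than 0.2 in size, with Col12a1 as the exception. The coefficient of variation of these 15 members was 4.64 to 19.1% in Sirt7 scKO and 3.24 to 9.62% in control. It was larger in Sirt7 scKO for 11 of the 15, and for 9 of the 15 without Sirt7 scKO replicate 4. For members of a few CPM the intervals were wide: that of Col6a6, at a mean of 2.85 CPM, ran from a fold of 0.596 to 2.14, so differences of that size were not detectable at this depth. The 13 members that were not tested had 0 to 12 counts in any library. Where their counts are given as sums, these cover 4 Sirt7 scKO and 3 control libraries, so equal sums are not equal levels.

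**Figure D2:**
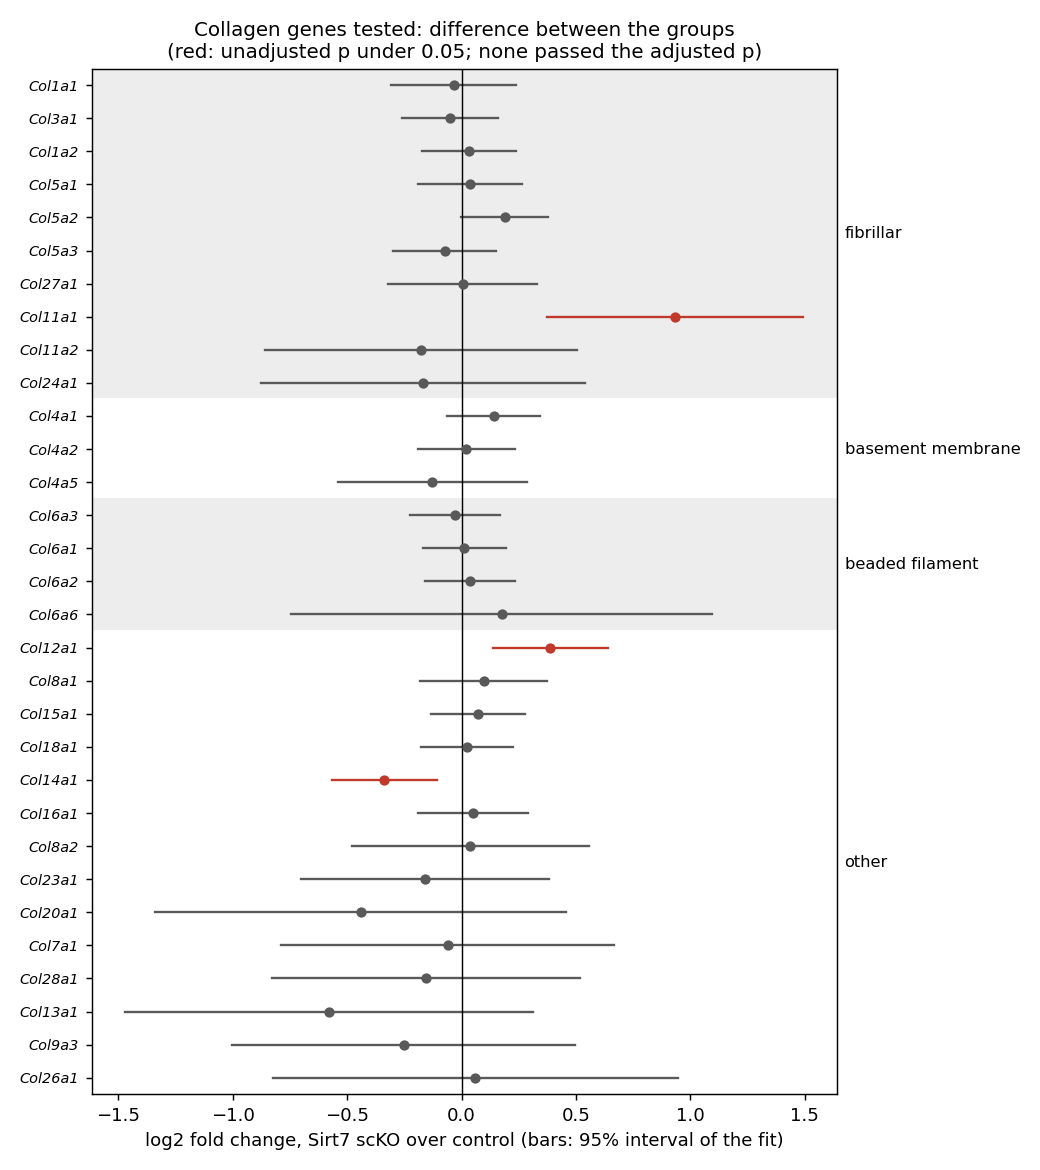
Log2 fold change of the 31 tested collagen genes, Sirt7 scKO over control, with bars for the 95% interval of the edgeR fit, in the same order of rows as the plot of levels. Red marks the 3 genes at an unadjusted p under 0.05 (Col11a1, Col12a1 and Col14a1), and the intervals are narrow for abundant genes and wide for those of a few CPM.

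Among fibrillar collagens, the abundant chains were at like levels in both groups. Col1a1, the alpha 1 chain of type I collagen (ENSMUSG00000001506.10, GRCm38 chromosome 11, 94936224 to 94953042, plus strand), had 3077, 3836, 3304 and 2509 CPM in Sirt7 scKO replicates 1 to 4 and 3156, 3115 and 3509 CPM in control replicates 1 to 3. Sirt7 scKO replicates 2 and 4 were the highest and the lowest of all 7 libraries. The log2 fold change was -0.03 (95% interval -0.31 to 0.24, SE 0.126, edgeR adjusted p = 0.93). Col1a2, which supplies the other chain of type I (ENSMUSG00000029661.16, chromosome 6, 4504814 to 4541544, plus strand), had 2696, 3089.7, 2963 and 2512 CPM in Sirt7 scKO and 2728, 2649.7 and 2889 CPM in control (log2 fold change 0.03, SE 0.095, edgeR adjusted p = 0.915). The groups overlapped. Col3a1, the chain of type III collagen that mixes with type I in early repair matrix (ENSMUSG00000026043.18, chromosome 1, 45311538 to 45349706, plus strand), had 2843, 3216, 2946 and 3317 CPM in Sirt7 scKO and 3516, 2911 and 3150.1 CPM in control (log2 fold change -0.05, SE 0.097, edgeR adjusted p = 0.855). A control library was the highest and a Sirt7 scKO library the lowest for this gene. An annotated miRNA gene, Gm47302, lies over 141 bases of Col3a1 exons on the same strand and stood at 266 CPM, and reads of Gm47302 and Col3a1 cannot be told apart there.

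Types V and XI nucleate the fibrils that types I and II build. Col5a1 had 497, 643, 513 and 469 CPM in Sirt7 scKO and 527, 498 and 527.5 CPM in control (log2 fold change 0.04, SE 0.105, edgeR adjusted p = 0.912). Col5a2 had 396, 468, 447 and 469.6 CPM in Sirt7 scKO and 374, 376 and 422 CPM in control. Of its 4 Sirt7 scKO libraries 3 lay above all control libraries, and the log2 fold change was 0.19 (95% interval -0.00 to 0.38, SE 0.088, edgeR adjusted p = 0.371). Col5a3 was 131 ± 18.4 CPM in Sirt7 scKO and 139 ± 4.52 CPM in control (SD, n = 4 and 3).

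Col11a1, the alpha 1 chain of type XI collagen, known best from cartilage (ENSMUSG00000027966.19, chromosome 3, 114030540 to 114220718, plus strand), differed most in the fibrillar group. It had 17.3, 15.7, 17.7 and 8.89 CPM in Sirt7 scKO replicates 1 to 4 and 10.3, 8.08 and 5.26 CPM in control replicates 1 to 3. The first 3 Sirt7 scKO libraries lay above all control libraries and replicate 4 within the control range. The log2 fold change was 0.93 (95% interval 0.37 to 1.49, SE 0.259), with an edgeR adjusted p of 0.165. Without Sirt7 scKO replicate 4 it was 1.10 with an edgeR adjusted p of 0.0202, in a fit that passed 1.96% of all genes, and DESeq2 on all libraries gave an adjusted p of 0.0491. Over all alternatives the adjusted p ran from 0.00101 to 0.491.

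Markers of bone and cartilage, from lists chosen with earlier results of these data known, were read beside Col11a1. The 8 bone markers summed to 58.7 to 83.5 CPM in Sirt7 scKO and 50.1 to 60.1 CPM in control, most of it Runx2 (49.3 ± 5.09 CPM in Sirt7 scKO and 47.6 ± 7.23 CPM in control), and 2 of the 4 tested passed, Ibsp and Alpl. Ibsp, which encodes bone sialoprotein, had 11.7, 7.33, 13.2 and 4.16 CPM in Sirt7 scKO and 0.347, 0.180 and 0 CPM in control (edgeR adjusted p = 0.00999). Alpl, the alkaline phosphatase of mineralising cells, had 7.46, 6.67, 8.08 and 5.49 CPM in Sirt7 scKO and 1.91, 0.539 and 1.58 CPM in control (edgeR adjusted p = 0.0191). The groups did not overlap for either gene, and replicate 4 was the lowest of the Sirt7 scKO libraries for both. Without control replicate 2, 0 genes of the whole table passed, so neither Ibsp nor Alpl did. Without control replicate 1, 2 genes passed, Mmp13 among them, so Ibsp and Alpl did not both pass. Runx2 and Dmp1, also tested, did not pass, with log2 fold changes of 0.05 and -0.04 and with overlap. Dmp1 was 1.83 ± 0.721 CPM in Sirt7 scKO and 1.94 ± 0.380 CPM in control. The defining markers Sp7, Bglap, Phex and Ifitm5 had at most 2.4 CPM in any library and were not tested. Bglap had 7, 5, 4 and 1 counts in Sirt7 scKO and 1, 1 and 0 counts in control. Its CPM did not overlap between the groups and were higher in Sirt7 scKO, while those of Sp7, Phex and Ifitm5 overlapped. The 8 cartilage markers summed to 57.1 to 61.9 CPM in Sirt7 scKO and 59.7 to 77.5 CPM in control, with Snorc at 0 counts in every library. Of the 3 tested none passed, and Sox9, a transcription factor of cartilage cells, had 19.98, 20.7, 22.3 and 18.9 CPM in Sirt7 scKO and 26.2, 27.3 and 33.3 CPM in control (log2 fold change -0.50, edgeR adjusted p = 0.13). Every Sirt7 scKO library was below every control library for Sox9. Chad and Comp, also tested, had log2 fold changes of 0.06 and -0.01. Acan, not tested, was 1.82 ± 0.967 CPM in Sirt7 scKO and 0.935 ± 0.353 CPM in control, with overlap. Hapln1, Matn1 and Matn3 had at most 0.785 CPM in any library. Col2a1, the collagen of cartilage fibrils, had 2, 1, 3 and 2 counts in Sirt7 scKO and 4, 3 and 3 counts in control. Col2a1 CPM did not overlap between the groups, but it was not tested at these counts. The part of bone or cartilage cells in the Col11a1 values was not tested. Fewer cells of a type and less RNA per cell cannot be told apart in RNA of whole muscle.

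The remaining fibrillar genes had low levels and log2 fold changes within their error. Col11a2, the partner of Col11a1 in type XI, was 4.90 ± 1.73 CPM in Sirt7 scKO and 5.59 ± 2.06 CPM in control. Col24a1 was 3.05 ± 1.20 CPM in Sirt7 scKO and 3.47 ± 0.731 CPM in control, and Col27a1 29.5 ± 5.30 CPM in Sirt7 scKO and 29.6 ± 4.31 CPM in control. In all 3 the groups overlapped, with edgeR adjusted p from 0.845 to 0.993.

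Promoter sequences are shown for the gene with the largest difference, for 2 of the most abundant chains and for the start that Col4a1 shares with Col4a2. RefSeq (GRCm38.p6) windows from 250 bases before to 50 bases after the start were found for 35 of the 44 members, and Col1a1, Col2a1, Col4a3, Col5a2, Col9a3, Col12a1, Col14a1, Col22a1 and Col26a1 had no entry. Each is written 5′ to 3′ on the strand of its gene, with capitals for the CCAAT box, for the TATA box (letters TATAAA) and for the GC box (letters GGGCGG), on either strand. No matches overlap each other in these windows. The starts are those of RefSeq, and that of Col1a2 lies inside the GENCODE gene.
Col11a1, chr3:114030290-114030589, plus strand: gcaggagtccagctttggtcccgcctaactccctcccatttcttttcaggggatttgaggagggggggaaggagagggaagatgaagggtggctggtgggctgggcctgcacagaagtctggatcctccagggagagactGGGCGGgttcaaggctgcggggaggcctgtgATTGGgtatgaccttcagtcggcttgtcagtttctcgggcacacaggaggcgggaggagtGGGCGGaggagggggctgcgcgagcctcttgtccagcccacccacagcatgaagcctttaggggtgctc
Col1a2, chr6:4505368-4505667, plus strand: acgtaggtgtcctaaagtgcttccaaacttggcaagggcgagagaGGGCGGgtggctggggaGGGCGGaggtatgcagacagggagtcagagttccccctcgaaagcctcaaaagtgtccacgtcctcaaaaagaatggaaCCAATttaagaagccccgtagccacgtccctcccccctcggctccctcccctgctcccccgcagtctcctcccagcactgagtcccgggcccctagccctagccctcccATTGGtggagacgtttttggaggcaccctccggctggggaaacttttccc
Col3a1, chr1:45311288-45311587, plus strand: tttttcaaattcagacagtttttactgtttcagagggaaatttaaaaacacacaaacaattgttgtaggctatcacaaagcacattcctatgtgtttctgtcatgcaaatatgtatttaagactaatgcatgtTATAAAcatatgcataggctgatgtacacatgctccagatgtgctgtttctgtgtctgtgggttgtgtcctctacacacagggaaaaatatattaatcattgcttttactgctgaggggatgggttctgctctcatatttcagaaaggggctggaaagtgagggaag
Col4a1, chr8:11312777-11313076, minus strand: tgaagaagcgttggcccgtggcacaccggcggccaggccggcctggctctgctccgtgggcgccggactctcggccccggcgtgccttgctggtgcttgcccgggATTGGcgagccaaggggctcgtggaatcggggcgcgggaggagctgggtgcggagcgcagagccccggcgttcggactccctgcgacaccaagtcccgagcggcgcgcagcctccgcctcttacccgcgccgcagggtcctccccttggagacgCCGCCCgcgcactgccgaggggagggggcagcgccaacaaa
GGGCGG was in 23 of the 38 windows of collagen genes (60.5%) and in 35.7% of all 32851 windows. CCAAT was in 34.2% of the collagen windows and 37.4% of all windows, and TATAAA in 13.2% of the collagen windows and 13.6% of all. The Col3a1 window held the TATAAA match and neither of the others, at 37.7% G and C, whereas those of Col11a1, Col1a2 and Col4a1 held CCAAT and GGGCGG at 61.0 to 74.0% G and C. A match in these windows is a string of letters and not a measured binding site.

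Basement membrane collagen was represented by Col4a1 and Col4a2, the chains of the type IV network found in nearly all basement membranes. The genes lie head to head on chromosome 8 with start sites 21 bases apart and overlapping first exons, and the Col4a1 window printed above holds both starts. Col4a1 (ENSMUSG00000031502.11, chromosome 8, 11198423 to 11312826, minus strand) had 469, 437, 470.2 and 396 CPM in Sirt7 scKO and 396, 367 and 443 CPM in control (log2 fold change 0.14, 95% interval -0.06 to 0.34, SE 0.093, edgeR adjusted p = 0.544). Col4a2 (ENSMUSG00000031503.13, chromosome 8, 11312805 to 11449287, plus strand) had 357, 308, 320.1 and 266 CPM in Sirt7 scKO and 323, 292 and 310.3 CPM in control (log2 fold change 0.02, SE 0.098, edgeR adjusted p = 0.946). The groups overlapped for both. Col4a5 was far lower, at 6.97 ± 0.887 CPM in Sirt7 scKO and 7.58 ± 0.594 CPM in control (edgeR adjusted p = 0.813). Its head-to-head neighbour on the X chromosome, Col4a6, had 27 counts over the 4 Sirt7 scKO libraries and 14 over the 3 control libraries. Col4a3 and Col4a4, which form the network of the kidney filter and lie head to head on chromosome 1 with starts 72 bases apart, had 8 and 22 counts in Sirt7 scKO and 10 and 18 in control. The markers of endothelium, cells that rest on a basement membrane, summed to 318 to 382 CPM in Sirt7 scKO and 309 to 389 CPM in control.

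Beaded filament collagen, type VI, links the basement membrane of muscle fibres to the matrix around them, and its loss causes muscular dystrophy in humans. Col6a1 (ENSMUSG00000001119.7, chromosome 10, 76708792 to 76726168, minus strand) had 806, 758, 720.4 and 754 CPM in Sirt7 scKO and 818, 699 and 741 CPM in control (log2 fold change 0.01, 95% interval -0.17 to 0.20, SE 0.085, edgeR adjusted p = 0.964). Col6a2 had 776, 692, 675 and 685 CPM in Sirt7 scKO and 763, 639 and 664 CPM in control (log2 fold change 0.04, SE 0.091, edgeR adjusted p = 0.89). The groups overlapped for both genes. Col6a3, the largest of these chains, had 977, 996, 910.3 and 827 CPM in Sirt7 scKO and 1017, 885 and 938 CPM in control (log2 fold change -0.03, SE 0.092, edgeR adjusted p = 0.918). The 95% intervals of these 3 chains lay within a fold of 0.854 to 1.18. The other chains, Col6a4, Col6a5 and Col6a6, lie together on chromosome 9 and were low. Col6a6 was 3.02 ± 0.958 CPM in Sirt7 scKO and 2.63 ± 1.75 CPM in control, while Col6a4 and Col6a5 had 34 and 28 counts in Sirt7 scKO and 21 and 19 in control and were not tested.

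The 2 tested members whose groups did not overlap were both fibril-associated collagens, which sit on the surface of type I fibrils. Col12a1 (ENSMUSG00000032332.17, chromosome 9, 79598991 to 79718831, minus strand) had 142, 187, 161 and 128 CPM in Sirt7 scKO replicates 1 to 4 and 117, 113 and 124 CPM in control replicates 1 to 3. Every Sirt7 scKO library was above every control library, replicate 4 by the least. The log2 fold change was 0.39 (95% interval 0.14 to 0.64, SE 0.116, edgeR adjusted p = 0.193). Without Sirt7 scKO replicate 4 it was 0.47 with an edgeR adjusted p of 0.0352, in the fit that passed 1.96% of all genes. The adjusted p ran from 0.0129 to 0.551 over all alternatives.

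Col14a1 lay the other way (ENSMUSG00000022371.15, chromosome 15, 55307750 to 55520803, plus strand). It had 68.8, 95.1, 76.3 and 86.6 CPM in Sirt7 scKO and 104, 104 and 102 CPM in control, so that every Sirt7 scKO library was below every control library. The coefficient of variation was 14.1% in Sirt7 scKO and 0.625% in control. The log2 fold change was -0.34 (95% interval -0.56 to -0.11, SE 0.105), with an edgeR adjusted p of 0.211 and 0.0658 to 0.545 over the alternatives. The 7 markers of fibroblasts and fibro-adipogenic progenitors summed to 926 to 1232 CPM in Sirt7 scKO and 1138 to 1229 CPM in control. Of these 7, 6 had negative log2 fold changes (median -0.14) and none passed. Dpt, a matrix protein gene among them, had 72.9, 67.4, 52.5 and 75.3 CPM in Sirt7 scKO and 105, 103 and 78.3 CPM in control, without overlap (edgeR adjusted p = 0.139). Ly6a, also among the 7, had a log2 fold change of -0.44 with overlap (edgeR adjusted p = 0.225). The 6 tendon markers summed to 318 to 427 CPM in Sirt7 scKO and 305 to 556 CPM in control. Their log2 fold changes were positive for 3 and negative for 3 (median 0.03), and none passed. The largest in size was that of Scx (-0.62, edgeR adjusted p = 0.18), with overlap. The part of either cell type in the Col12a1 and Col14a1 values was not tested.

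**Figure D3:**
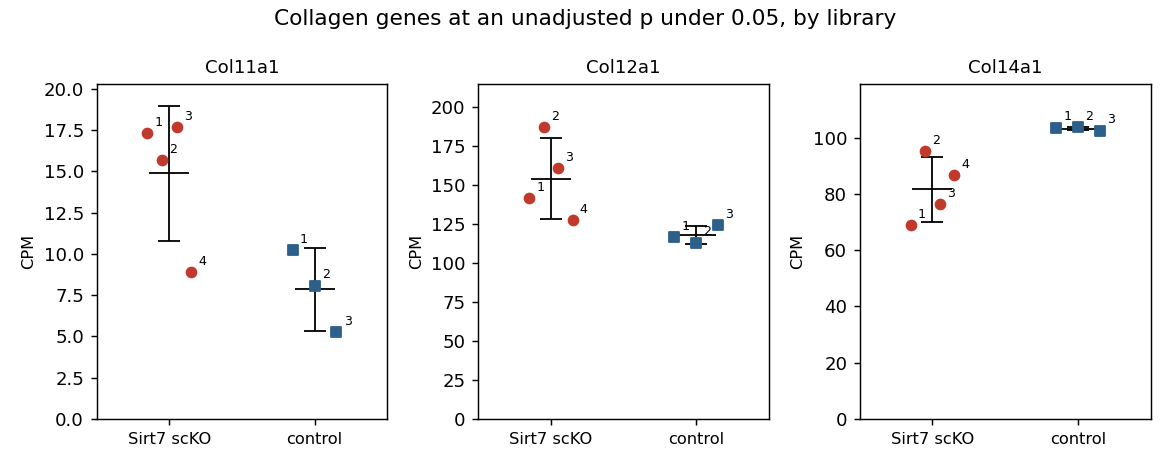
CPM of Col11a1, Col12a1 and Col14a1 by library, with axes from 0. Red circles are Sirt7 scKO and blue squares control libraries, small digits give the replicate number, and black lines give the mean ± SD (n = 4 and 3). Sirt7 scKO replicate 4 lies within the control range for Col11a1 and closest to it for Col12a1, and the groups do not overlap for Col12a1 and Col14a1.

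Of the other fibril-associated genes, Col16a1 was 72.2 ± 10.2 CPM in Sirt7 scKO and 69.9 ± 3.11 CPM in control, and Col20a1 2.73 ± 1.42 CPM in Sirt7 scKO and 3.80 ± 1.46 CPM in control. Col9a3 was 2.15 ± 0.542 CPM in Sirt7 scKO and 2.53 ± 0.898 CPM in control. Col9a1, Col9a2, Col19a1 and Col22a1 were not tested, at 1, 12, 18 and 19 counts over the Sirt7 scKO libraries and 2, 13, 10 and 19 over the control libraries. Col22a1 is a collagen of the junction between muscle and tendon.

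The short chain collagens form hexagonal networks. Col8a1 was 133 ± 25.3 CPM in Sirt7 scKO and 125 ± 10.1 CPM in control (edgeR adjusted p = 0.79), and Col8a2 21.02 ± 8.17 CPM in Sirt7 scKO and 20.6 ± 2.69 CPM in control (edgeR adjusted p = 0.961). Col10a1, made by hypertrophic cartilage, had 11 counts in Sirt7 scKO and 9 in control. The multiplexins Col15a1 and Col18a1, found at basement membranes, were 128 ± 15.3 and 116 ± 11.5 CPM in Sirt7 scKO, against 122 ± 4.35 and 114 ± 6.14 CPM in control (edgeR adjusted p = 0.79 and 0.937). Col7a1, of the anchoring fibrils of skin, was 3.02 ± 1.13 CPM in Sirt7 scKO and 3.22 ± 0.790 CPM in control.

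The transmembrane collagens were low. Col23a1 was 8.20 ± 2.83 CPM in Sirt7 scKO and 9.29 ± 1.73 CPM in control. Col13a1, a collagen of the neuromuscular junction, was 1.98 ± 0.726 CPM in Sirt7 scKO and 2.93 ± 1.48 CPM in control (log2 fold change -0.58, 95% interval -1.47 to 0.31, SE 0.412, edgeR adjusted p = 0.568). Col25a1, which muscle needs for motor innervation in mice, had 3 counts in each group (0.110 CPM in Sirt7 scKO and 0.175 CPM in control). Col17a1, of skin hemidesmosomes, had 30 counts in Sirt7 scKO and 22 in control. Col26a1 and Col28a1, which fit none of these classes, were 2.09 ± 0.765 and 2.50 ± 0.736 CPM in Sirt7 scKO, against 2.05 ± 0.976 and 2.82 ± 0.261 CPM in control.

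Chains that join in one trimer were read as ratios of counts, which do not depend on the scaling of libraries. Col6a1 over Col6a2 was the steadiest, at 1.04, 1.10, 1.07 and 1.10 in Sirt7 scKO and 1.07, 1.09 and 1.12 in control, with a coefficient of variation of 2.38% over all 7 libraries. Col1a1 over Col1a2 was 1.14, 1.24, 1.12 and 0.999 in Sirt7 scKO and 1.16, 1.18 and 1.21 in control (6.87%). Col4a1 over Col4a2 was 1.31, 1.42, 1.47 and 1.49 in Sirt7 scKO and 1.22, 1.26 and 1.43 in control (7.66%). Col6a3 over Col6a1 was 1.22 ± 0.0933 in Sirt7 scKO and 1.26 ± 0.0126 in control, and Col5a1 over Col5a2 1.19 ± 0.160 in Sirt7 scKO and 1.33 ± 0.0794 in control. In all of these the groups overlapped.

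Ratios between collagen types varied more. Col3a1 over Col1a1 was 0.924, 0.838, 0.892 and 1.32 in Sirt7 scKO replicates 1 to 4 and 1.11, 0.935 and 0.898 in control replicates 1 to 3. Sirt7 scKO replicate 4 had the highest value of all, with the lowest Col1a1 level of the 7 libraries. Col12a1 over Col14a1, a pair chosen after their values were seen, was 2.06, 1.97, 2.11 and 1.47 in Sirt7 scKO and 1.13, 1.09 and 1.21 in control. The groups did not overlap, as the choice of the pair fixes, and it was not tested.

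**Figure D4:**
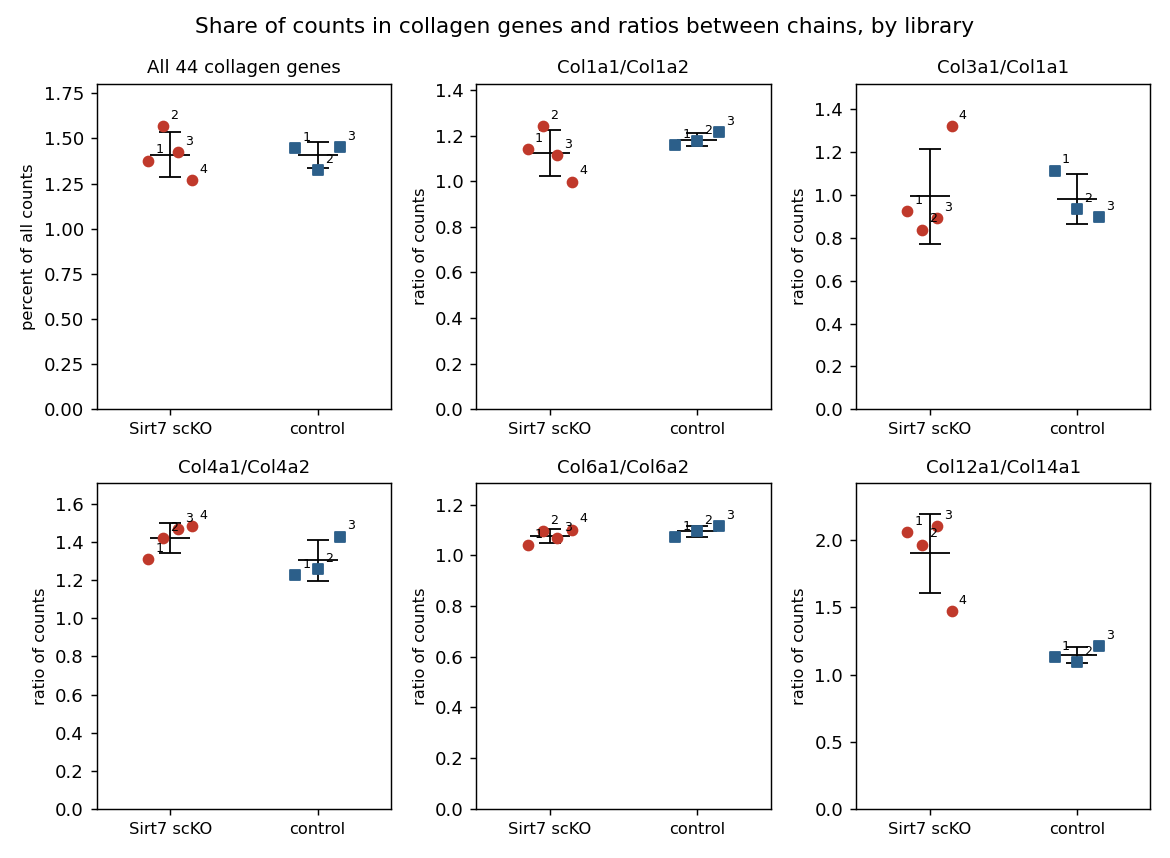
Share of all counts that fell in the 44 collagen genes and ratios of counts between pairs of chains, by library, with axes from 0. Red circles are Sirt7 scKO and blue squares control libraries, small digits give the replicate number, and black lines give the mean ± SD (n = 4 and 3). The groups overlap in all panels but that of Col12a1 over Col14a1, and Sirt7 scKO replicate 4 has the highest ratio of Col3a1 to Col1a1.

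Genes that make, export, crosslink, bind and break down collagen were read from 5 lists of 65 genes, chosen with earlier results of these data known. Of the 61 tested, 31 had positive and 30 negative log2 fold changes, and 1 passed, the collagenase gene Mmp13, which was higher in Sirt7 scKO (76.96, 54.9, 78.0 and 39.7 CPM, against 19.6, 10.1 and 9.29 CPM in control, log2 fold change 2.27, SE 0.276, edgeR adjusted p = 0.00999). It missed the threshold without control replicate 2 (log2 fold change 2.11, edgeR adjusted p = 0.111) and with robust dispersion (edgeR adjusted p = 0.113), and over the other alternatives passed. At an unadjusted p under 0.05 there were 10 of the 61 (16.4%), near the 13.6% of all genes.

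For folding and modification of the chains, 12 of 21 genes were positive, 9 negative and none passed (median 0.02). Serpinh1, the chaperone dedicated to collagen, was 906 ± 114 CPM in Sirt7 scKO and 893 ± 20.5 CPM in control. The smallest p belonged to the disulphide isomerase Pdia3 (0.29), the prolyl 3-hydroxylase P3h3 (-0.27), the chaperone Hspa5 (0.25) and the lysyl hydroxylase Plod3 (-0.22), values that are log2 fold changes. Without Sirt7 scKO replicate 4, where 1.96% of all genes passed, Pdia3 passed (log2 fold change 0.35, edgeR adjusted p = 0.0399). Pdia3 also passed with the replicate number as a block, and in no other alternative. For export and removal of propeptides, 5 of 12 were positive and none passed, led by the convertase Furin (-0.21). In this list the groups did not overlap for Furin, Adamts2 and Pcolce, lower in Sirt7 scKO, and for Sec23a, higher. For crosslinking, 3 of 5 lysyl oxidase genes were positive and none passed. For receptors and uptake, 6 of 12 were positive and none passed, led by the collagen receptor kinase Ddr1 (-0.34). In the lists for folding and for receptors, the groups did not overlap for P3h3, lower in Sirt7 scKO, and for Itgb1, higher. Such a lack of overlap was found in 12.2% of all genes tested.

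For breakdown, 5 of 11 were positive with a median of -0.11, and 1 passed, Mmp13. Mmp9, a gelatinase, had 88.1, 97.7, 98.4 and 40.9 CPM in Sirt7 scKO and 43.96, 42.2 and 41.3 CPM in control (log2 fold change 0.94, edgeR adjusted p = 0.13). As with Col11a1, Sirt7 scKO replicate 4 lay apart from the other Sirt7 scKO libraries and near the controls. Ctsk, the cathepsin that digests collagen in bone, had 126, 143, 128 and 103 CPM in Sirt7 scKO and 92.6, 93.95 and 96.7 CPM in control (log2 fold change 0.41, edgeR adjusted p = 0.135). Without Sirt7 scKO replicate 4, where 1.96% of all genes passed, both Mmp9 and Ctsk passed, with edgeR adjusted p of 0.000155 and 0.00995. Both also passed without a filter and with the replicate number as a block, and in no other alternative. The bone markers Ibsp and Alpl, given with Col11a1, were above every control library in all 4 Sirt7 scKO libraries, as were Mmp13 and Ctsk, whereas Mmp9 in replicate 4 was below all 3 control libraries. Of the other bone markers, Bglap did not overlap at its few counts, and Runx2, Sp7, Dmp1, Phex and Ifitm5 overlapped. Over all genes tested, the groups did not overlap in 12.2% (6.51% higher and 5.71% lower). The part of bone cells in the values of Mmp13, Mmp9 and Ctsk was not tested.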

How the data were processed

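The data are a table of raw counts per gene and library for 7 mice, deposited by the authors. Per the submitters' processing notes, the tools were fastp, Bowtie2 and featureCounts and the builds GRCm38 and mm10, with no versions or order stated. No source used here states the strand setting, the annotation release or the treatment of reads with several matches.

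Of the 48820 identifiers, 48144 matched GENCODE M21, which gave symbols, biotypes, exons and GRCm38 coordinates. Genes were kept by edgeR's filterByExpr (minimum count 10, minimum total 15), scaled by TMM and tested with edgeR 4.0.16 (quasi-likelihood F test, R 4.3.3) on all 7 libraries without covariates. P-values were adjusted by Benjamini-Hochberg over all 16764 genes, at a threshold of 0.05. The SE was the log2 fold change divided by the square root of F. CPM used the same scaling, and levels per kilobase the union of exons. The edgeR fit was tested on simulated data. Alternatives were limma 3.58.1, DESeq2 1.42.0, other scalings, filters and dispersions, protein-coding genes alone, the replicate number as a block and each library left out.

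Every member is named. Values per library are given for those at an unadjusted p under 0.05 or without overlap and for the abundant chains, and at most 4 genes of each pathway list are named by the smallest p. Serpinh1, the marker genes and the pathway genes named for a lack of overlap were named outside this rule. The members and lists were chosen with earlier results of these data known.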

Additional observations from a re-analysis of the deposited data

Results flagged for a closer look

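Among the values of the 4 Sirt7 scKO libraries that were examined for a library far from the others, 1 stood out. Col26a1 had 2.53, 2.49, 2.40 and 0.946 CPM in Sirt7 scKO replicates 1 to 4 and 3.13, 1.80 and 1.23 CPM in control replicates 1 to 3. The gap between replicate 4 and the nearest Sirt7 scKO library was 0.913 of the range of that group. Chance alone sets about 1 in 20 such groups apart, and 58 values were examined. The log2 fold change of Col26a1 was 0.06, and at these low counts the distance of replicate 4 was not tested further.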

How the results depend on the processing

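Over all genes, 17 were higher and 5 lower in Sirt7 scKO. With DESeq2 there were 79 and 75, without a filter 209 and 376, with protein-coding genes alone 3 and 2, with robust dispersion 35 and 21, and with total-count scaling 25 and 10. With 1 library left out there were 0 to 132 higher and 0 to 198 lower. Collagen genes past the threshold, 0 in the reported fit, were 1 with DESeq2 (Col11a1), 2 of 44 without a filter (Col11a1 and Col12a1, where 2.06% of 28443 genes passed) and 0 to 2 with a library left out. The 2 were Col11a1 and Col12a1 without Sirt7 scKO replicate 4, where 1.96% of 16794 genes passed. Pathway genes higher in Sirt7 scKO, 1 in the reported fit, were 3 without a filter, 0 with robust dispersion and 0 to 4 with a library left out.

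Same-numbered libraries did not deviate together (correlations 0.123, -0.0742 and 0.0956), and the labels state no pairing. With so few libraries this check cannot show that the samples were unpaired. A fit with the replicate number as a block, in which Sirt7 scKO replicate 4 has a level of its own and adds nothing to the comparison, gave 171 higher and 366 lower genes (3.2% of 16764), 2 collagen genes (Col11a1 and Col12a1) and 4 pathway genes. In that block fit the log2 fold changes of Col1a1 and Col6a3 were positive, at 0.059 and 0.0232.

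Of 208 log2 fold changes of 13 collagen genes over 16 alternatives, 186 kept direction and side of the threshold, 15 changed sign and 7 passed the threshold. The changes of sign were in genes near 0. With 1 library left out, log2 fold changes ran from -0.134 to 0.0629 for Col1a1, -0.0131 to 0.0815 for Col1a2, -0.114 to 0.0181 for Col3a1, -0.0667 to 0.0898 for Col5a1, -0.0513 to 0.0898 for Col4a2, -0.0388 to 0.0709 for Col6a1, -0.0147 to 0.112 for Col6a2 and -0.0766 to 0.0217 for Col6a3. The cause was not tested. Depth limits the members of a few CPM, and 13 members could not be tested.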
